A study of Mus musculus with 32 samples.

Results

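The genes described here are markers of astrocytes and of their reaction to injury, Gfap, Vim, Lcn2, Serpina3n, Cd44, Steap4, S1pr3, Tgm1, Cd109 and Aqp4, taken by row name as 10 of the 33280 genes of each count table. They were measured by bulk RNA-seq in wild-type mice, 4 given vehicle (Veh in the labels, CTL here; mice A2, A3, A4 and B1) and 4 given BLZ945 (mice C2, C3, C4 and D1). BLZ945 blocks CSF1R, whose signal keeps microglia and CNS-associated macrophages (CAMs) alive, and was given at 200 mg per kg for 7 days. All 8 adult mice underwent thromboembolic stroke of the middle cerebral artery 8 weeks after treatment and were taken 1 day later, so both treatments carry a stroke and no sham operation is compared. The 32 libraries, all labelled as 1 batch, come from a slice of whole tissue and from sorted subdural CAMs (sdCAMs; CAM in the plots) of the ipsilateral (lesioned) and the contralateral hemisphere of each mouse. The sdCAM gate was Ly6C- Ly6G- CD11c- CD45+ CD11b+ CD206+. BLZ945 mice are mice whose macrophages were depleted and had 8 weeks to repopulate, not mice under the drug at the time of stroke.

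Astrocytes answer injury by a graded change of state called reactive astrogliosis, in which they enlarge, remodel their intermediate filaments and release acute-phase and immune proteins. Cytokines that act through gp130 receptors and the transcription factor STAT3 are known drivers of this state, and gene panels have been proposed for features shared by most injuries (pan-reactive), for an inflammation-induced form (A1) and for an ischaemia-induced form (A2). Among the genes here, Gfap, Vim, Lcn2, Serpina3n, Cd44, Steap4 and S1pr3 belong to the pan-reactive panel and Tgm1 and Cd109 to the A2 panel, whereas Aqp4, the water channel of astrocyte endfeet, is also abundant in resting astrocytes. None of these panels is exclusive to astrocytes, since vessels, leukocytes and macrophages can also express Vim, Lcn2 and Cd44.

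Values are CPM (library-size-scaled counts, with TMM factors). Differences between groups are log2 fold changes from edgeR's quasi-likelihood test, and calls required an adjusted p (Benjamini-Hochberg over all genes tested) under 0.05 together with a log2 fold change beyond 0.59. Total counts were 9288717 to 12781505 per tissue library and 7397393 to 11081409 per sdCAM library used. A count of 3, taken as the floor, corresponded to 0.235 to 0.323 CPM in tissue and 0.271 to 0.406 CPM in sdCAMs, which covers counting error only. The ipsilateral sdCAM libraries of A3 and C2, whose RNA the labels mark as degraded, held 54055 and 55155 counts and were left out. For tissue of A3, the labels and the column names of the count table disagree on which library is ipsilateral. The labels were followed, and the tissue results rest on that choice as given below.

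The promoters of the genes are shown as background, since STAT3 is a known driver of the reactive state. RefSeq promoters on build GRCm38.p6, each 250 bases before and 50 bases after a transcript start, were used for 8 of the 10 genes. These were 9 promoters, with 2 for Tgm1 and none for Cd109 or Aqp4. Motifs were searched on both strands as STAT (TTCNNNGAA), C/EBP (TTGCNNAA), AP-1 (TGANTCA) and NF-kappaB (GGGANTTTC). The stretches printed are Gfap chr11:102897194-102897450 (minus strand), Lcn2 chr2:32387740-32387989 (minus), Serpina3n chr12:104406458-104406707 (plus), Steap4 chr5:7960222-7960471 (plus) and Tgm1 chr14:55713493-55713742 (minus), each 5′ to 3′ up to the transcript start (for Gfap up to the end of a match that crosses it), with STAT and C/EBP matches in capitals.
Gfap: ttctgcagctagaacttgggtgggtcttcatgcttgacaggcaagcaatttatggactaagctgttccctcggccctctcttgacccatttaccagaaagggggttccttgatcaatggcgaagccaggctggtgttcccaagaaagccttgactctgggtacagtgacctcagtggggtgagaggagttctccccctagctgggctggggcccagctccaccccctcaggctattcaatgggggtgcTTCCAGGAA
Lcn2: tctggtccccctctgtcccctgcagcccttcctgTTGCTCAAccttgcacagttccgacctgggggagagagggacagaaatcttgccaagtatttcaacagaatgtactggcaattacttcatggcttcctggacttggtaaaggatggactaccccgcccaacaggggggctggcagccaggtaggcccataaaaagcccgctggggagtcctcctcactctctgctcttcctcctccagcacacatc
Serpina3n: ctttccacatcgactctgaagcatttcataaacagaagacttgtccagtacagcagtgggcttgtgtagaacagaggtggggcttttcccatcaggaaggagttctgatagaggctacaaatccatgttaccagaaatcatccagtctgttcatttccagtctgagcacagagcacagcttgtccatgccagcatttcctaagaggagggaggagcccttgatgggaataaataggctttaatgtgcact
Steap4: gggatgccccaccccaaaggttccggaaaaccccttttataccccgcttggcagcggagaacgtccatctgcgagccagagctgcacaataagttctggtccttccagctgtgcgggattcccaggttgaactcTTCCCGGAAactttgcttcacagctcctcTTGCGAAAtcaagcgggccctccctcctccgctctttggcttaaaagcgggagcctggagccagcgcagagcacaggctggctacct
Tgm1: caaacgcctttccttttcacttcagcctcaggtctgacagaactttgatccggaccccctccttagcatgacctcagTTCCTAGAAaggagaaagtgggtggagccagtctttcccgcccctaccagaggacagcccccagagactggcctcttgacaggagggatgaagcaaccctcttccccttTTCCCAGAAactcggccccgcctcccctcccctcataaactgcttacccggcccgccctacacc

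STAT letters were found in 3 of the 9 promoters (Gfap, Steap4 and the upstream Tgm1 start), against 8.3% of all 32851 promoters. In Gfap the match TTCCAGGAA began 2 bases before the start, in Steap4 TTCCCGGAA began 116 bases before it, and in Tgm1 TTCCTAGAA and TTCCCAGAA began 173 and 64 bases before it. C/EBP letters were also in 3 of the 9 (10.8% of all promoters), with TTGCTCAA 216 bases before the Lcn2 start, TTGCGAAA 87 bases before the Steap4 start and 1 match past the other Tgm1 start. AP-1 letters (7.81% of all promoters) and NF-kappaB letters (1.11%) were in 0 of the 9. Serpina3n, which had the smallest adjusted p of the genes in tissue, is printed as a promoter with no match to any of the 4 motifs. The 9 promoters are few, and a match of letters does not show binding. Whether STAT3 or another factor acts on these promoters was not tested.

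In tissue, the stroke response of the genes was an increase in both treatments. Of the 10 genes, 6 rose in the ipsilateral hemisphere of CTL mice (Gfap, Vim, Lcn2, Serpina3n, Cd44 and Tgm1), against 0.443% of all 18968 genes tested that were called up. In BLZ945 mice 7 rose, the same 6 and S1pr3, against 1.12% of all genes, and in the average of both treatments 8 rose, with Steap4 added, against 1.93%. No member fell, where 0.0738% of all genes were called down in the average. Their median log2 fold change was 1.44 in CTL mice, 1.86 in BLZ945 mice and 1.64 in the average, where the median over all genes was -0.01. Cd109 and Aqp4 were not called in any of these comparisons. In whole tissue, more cells of a type and more RNA per cell cannot be told apart.

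With the hemispheres of A3 taken from the column names, none of the 10 genes was called in CTL mice, in BLZ945 mice or in the average, and in the average Gfap had a log2 fold change of 1.26 (adjusted p = 0.104) and Tgm1 one of 2.93 (adjusted p = 0.213). A3 is a CTL mouse, so the BLZ945 libraries were the same under both mappings. The groups share an estimate of the spread, through which A3 also enters the BLZ945 p-values. Over all alternatives the BLZ945 log2 fold change stayed between 1.81 and 1.99 for Gfap and between 2.25 and 2.54 for Serpina3n. With A3 left out altogether, 7 of the genes were called in the average and 2, Serpina3n and Tgm1, in CTL mice. Without B1 the count in CTL mice was also 2, so the CTL calls of Gfap, Vim, Lcn2 and Cd44 were lost without A3 and without B1. Those of Vim and Cd44 were also lost without A2 and that of Lcn2 without A4. These fits ignore the pairing of hemispheres. With all mice, the labels followed and the mouse as a block, the CTL adjusted p was 1.98e-07 for Gfap, Vim and Cd44 and 2.71e-06 for Lcn2. Each of these genes was higher ipsilaterally in 8 of 8 mice.

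**Figure D1:**
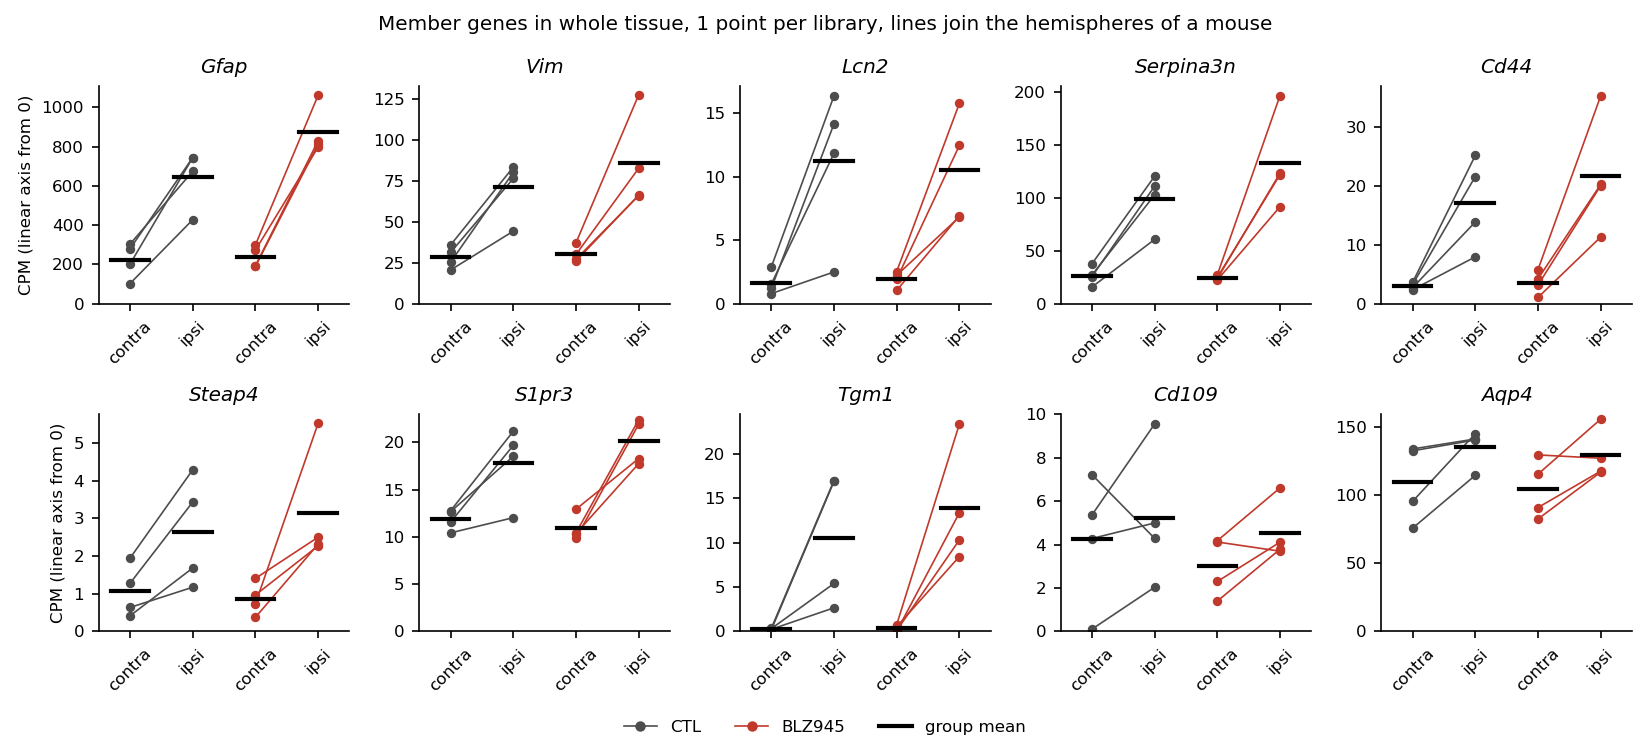
Tissue CPM of each gene (linear axis from 0) by treatment and hemisphere, with 1 point per library, thin lines that join the hemispheres of a mouse and thick bars at the group means. Gfap runs from 102 to 303 CPM in the contralateral hemisphere and from 428 to 1062 in the ipsilateral one, while the Aqp4 and Cd109 groups overlap.

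Gfap and Vim encode intermediate filament proteins of the astrocyte cytoskeleton, and Gfap is the classic marker of reactive astrocytes. In CTL mice Gfap was at 303, 279.6, 102 and 202 CPM in the contralateral hemisphere of A2, A3, A4 and B1 (222 ± 90.7, SD, n = 4) and at 675, 744, 428 and 744 in the ipsilateral hemisphere (648 ± 150.3). The BLZ945 values were 299, 193, 189.5 and 272 in C2, C3, C4 and D1 on the contralateral side (239 ± 55.5) and at 1062, 829.8, 812 and 797 on the ipsilateral side (875 ± 125). The hemispheres did not overlap in either treatment, A4 had the lowest Gfap on both sides among CTL mice and C2 the highest among BLZ945 mice. Gfap rose by a log2 fold change of 1.55 (SE 0.26, adjusted p = 0.0101) in CTL and 1.88 (SE 0.27, adjusted p = 0.00119) in BLZ945 mice, which was 3.27-fold in the average (adjusted p = 3.27e-05).

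Vim followed the same pattern at lower values. It was at 31.4, 35.9, 20.6 and 25.4 CPM contralaterally in CTL mice (28.4 ± 6.71, n = 4) and at 76.7, 83.6, 44.4 and 80.4 ipsilaterally (71.3 ± 18.1). In BLZ945 mice the contralateral values were 37.3, 27.2, 26.1 and 30.1 (30.2 ± 5.03) and the ipsilateral ones 128, 66.2, 66.4 and 82.9 (85.9 ± 29.1). The lowest ipsilateral value, that of A4, lay above every contralateral value. Vim rose by 1.33 (SE 0.23, adjusted p = 0.0116) in CTL and 1.51 (SE 0.23, adjusted p = 0.0021) in BLZ945 mice on the log2 scale, 2.67-fold in the average.

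Lcn2 and Serpina3n encode secreted acute-phase proteins, an iron-siderophore carrier and a serine protease inhibitor. Lcn2 was scarce in contralateral tissue, at 0.793, 2.89, 1.55 and 1.20 CPM contralaterally in CTL (1.61 ± 0.908, n = 4) and 1.93, 1.05, 2.23 and 2.53 in BLZ945 mice (1.93 ± 0.641). On the ipsilateral side it was at 2.50, 16.4, 11.8 and 14.2 in CTL (11.2 ± 6.10) and 12.5, 6.92, 6.83 and 15.8 in BLZ945 mice (10.5 ± 4.40). A2 stood out with an ipsilateral Lcn2 of 2.50, below the contralateral value of A3, so the CTL hemispheres overlapped, whereas those of BLZ945 mice did not. The increase was 2.79 (SE 0.50, adjusted p = 0.016) in CTL and 2.43 (SE 0.50, adjusted p = 0.0184) in BLZ945 mice on the log2 scale, 6.11-fold in the average (adjusted p = 0.000326). The BLZ945 call held in 4 of the 8 fits that left out 1 mouse each and was lost without C2, C3, C4 or D1 (highest adjusted p = 0.154, without C2).

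Serpina3n was at 37.7, 25.6, 15.7 and 27.01 CPM contralaterally (26.5 ± 8.99, n = 4) and 120.5, 111, 60.8 and 103 ipsilaterally in CTL mice (98.8 ± 26.4). BLZ945 mice had 27.2, 22.4, 23.7 and 24.8 (24.5 ± 2.05) contralaterally and 197, 91.6, 123 and 122 (133 ± 44.7). The hemispheres were apart in both treatments, and C2 again had the highest ipsilateral value. The log2 fold change was 1.89 (SE 0.26, adjusted p = 0.00131) in CTL and 2.44 (SE 0.26, adjusted p = 7.83e-05) in BLZ945 mice, 4.5-fold in the average with the smallest adjusted p of the 10 genes (2.24e-06). Serpina3n has close relatives in the Serpina3 cluster, so how reads shared with these were counted is uncertain.

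Cd44, the cell-surface receptor for hyaluronan, is carried by reactive astrocytes and by leukocytes. It was at 3.25, 2.72, 2.37 and 3.61 CPM contralaterally (2.99 ± 0.549, n = 4) and 21.6, 13.9, 7.96 and 25.2 ipsilaterally in CTL mice (17.2 ± 7.75). The BLZ945 libraries had 5.79, 1.05, 3.16 and 4.21 (3.55 ± 1.99) contralaterally and 35.3, 11.3, 20.1 and 20.3 (21.8 ± 9.96). Every ipsilateral library lay above every contralateral one, although the ipsilateral values spread widely, from A4 at the bottom to C2 at the top. Cd44 rose by 2.52 (SE 0.43, adjusted p = 0.0101) in CTL and 2.61 (SE 0.43, adjusted p = 0.00347) in BLZ945 mice, 5.92-fold in the average.

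Tgm1, a transglutaminase that crosslinks proteins and is best known from the epidermis, had the largest change of the 10 genes. It was close to absent contralaterally, with 3, 4, 3 and 2 counts in CTL mice (0.238, 0.340, 0.309 and 0.185 CPM; 0.268 ± 0.0700, n = 4) and 7, 5, 0 and 1 counts in BLZ945 mice (0.342 ± 0.355 CPM). Ipsilaterally it was at 2.65, 16.98, 5.39 and 16.9 CPM in CTL (10.5 ± 7.54) and 23.3, 8.42, 13.3 and 10.3 CPM in BLZ945 mice (13.8 ± 6.64). The hemispheres were far apart in every mouse, and A2 and A4 had the lowest ipsilateral values. The fitted log2 fold change was 5.23 (SE 0.72, adjusted p = 0.00143) in CTL and 5.36 (SE 0.71, adjusted p = 0.000593) in BLZ945 mice, and its size rests on contralateral counts of 0 to 7.

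S1pr3, a receptor for sphingosine-1-phosphate, changed less. It was at 11.6, 12.7, 10.4 and 12.8 CPM contralaterally (11.9 ± 1.10, n = 4) and 19.7, 18.5, 12.0 and 21.2 ipsilaterally in CTL mice (17.8 ± 4.03). BLZ945 mice were at 9.86, 10.3, 10.4 and 12.9 (10.9 ± 1.38) and at 21.9, 17.7, 22.4 and 18.3 (20.1 ± 2.41). The CTL hemispheres overlapped through A4, at 12.0 CPM on the ipsilateral side, and the BLZ945 hemispheres did not overlap. S1pr3 rose by 0.88 (SE 0.16, adjusted p = 0.00716) in BLZ945 mice and was not called in CTL mice (log2 fold change 0.59, SE 0.16, adjusted p = 0.18), and this is not a test of the difference between them. The BLZ945 call was lost without C2 or C4 (highest adjusted p = 0.106).

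Steap4, a metalloreductase of iron and copper, was low throughout. In CTL mice it was at 0.634, 1.27, 0.413 and 1.94 CPM contralaterally (1.07 ± 0.689, n = 4) and 1.17, 3.43, 1.68 and 4.28 ipsilaterally (2.64 ± 1.46). In BLZ945 mice it was at 0.964, 0.732, 0.372 and 1.40 (0.868 ± 0.433) and at 2.27, 5.51, 2.31 and 2.50 (3.15 ± 1.58). The ipsilateral value was the higher one in each of the 8 mice, with overlap between the CTL hemispheres, and C3 lay well above the other BLZ945 mice. Steap4 was called in the average (log2 fold change 1.57, SE 0.37, adjusted p = 0.0242) but neither in CTL (1.30, adjusted p = 0.636) nor in BLZ945 mice (1.84, adjusted p = 0.115). The average call held in 4 of the 8 fits without 1 mouse and was lost without A3, C2, C3 or C4 (highest adjusted p = 0.0809). With the mouse as a block it was called in BLZ945 mice (1.81, adjusted p = 0.00656), where 1.99% of all genes were called up.

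Cd109, a membrane-anchored coreceptor that restrains TGF-beta signalling, did not pass the test. It was at 4.28, 7.22, 0.103 and 5.36 CPM contralaterally and 5.00, 4.29, 2.03 and 9.56 ipsilaterally in CTL mice, and at 4.18, 2.30, 1.40 and 4.12 and at 6.61, 4.11, 3.78 and 3.70 in BLZ945 mice. The hemispheres overlapped in both treatments, and 6 of 8 mice had the higher value ipsilaterally. The contralateral library of A4 was near the floor. The average log2 fold change was 0.45 (SE 0.43, adjusted p = 0.739).

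Aqp4, the endfoot water channel, was abundant on both sides. It was at 132, 134, 75.6 and 95.3 CPM contralaterally (109 ± 28.6, n = 4) and 140.2, 141, 114 and 145 ipsilaterally in CTL mice (135 ± 13.98), and at 115, 90.7, 82.3 and 129 (104 ± 21.7) and 155, 117, 117 and 127 (129 ± 18.2) in BLZ945 mice. The groups overlapped, with a higher ipsilateral value in 7 of 8 mice. The average log2 fold change was 0.31 (SE 0.12, adjusted p = 0.239), a ratio of 1.24. With the mouse as a block the adjusted p was 0.00589 at a log2 fold change of 0.33, below the fold threshold.

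**Figure D2:**
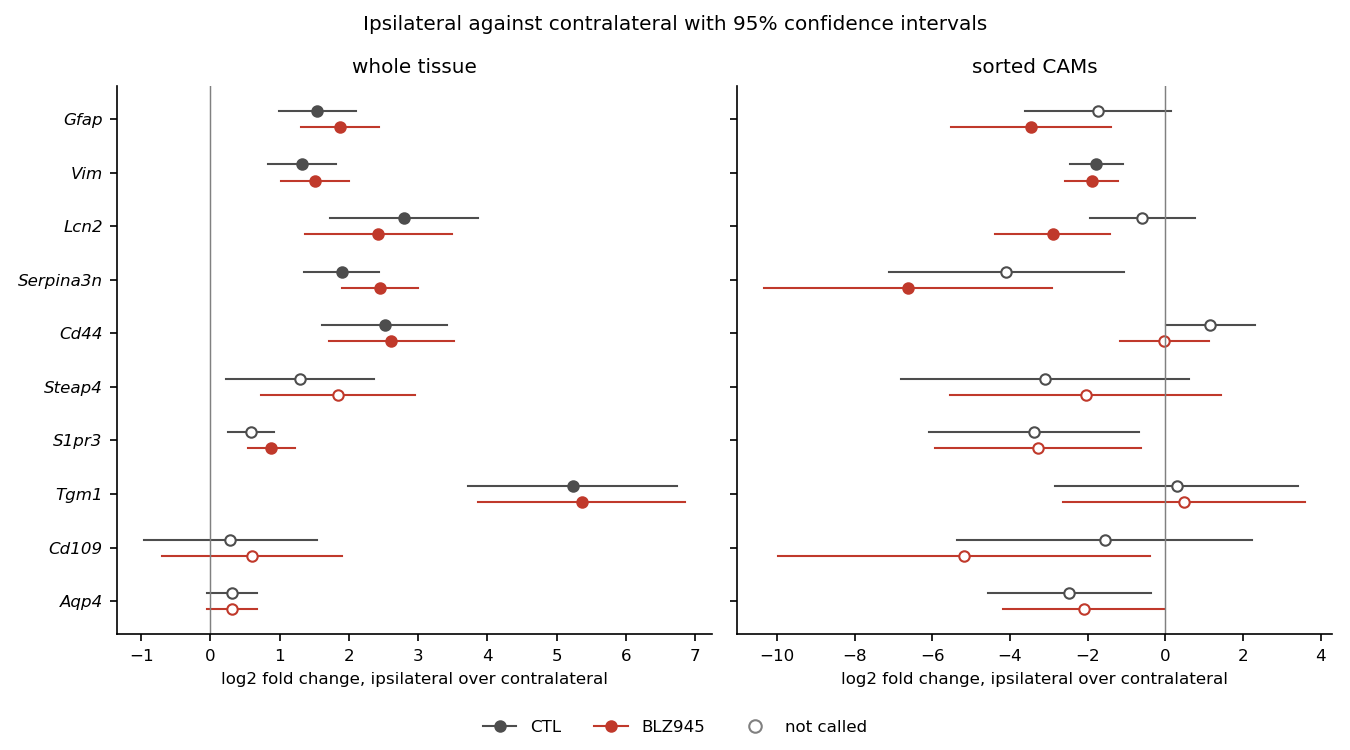
Log2 fold change of the ipsilateral over the contralateral hemisphere for each gene, with 95% confidence intervals, in tissue (left) and sdCAMs (right) of CTL (grey) and BLZ945 mice (red), with open circles for values not called. All tissue points lie right of 0, from 0.29 for Cd109 to 5.36 for Tgm1, and Vim is the sdCAM gene with filled circles in both treatments (-1.78 and -1.90).

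The treatments were then compared with each other. For none of the 10 genes did the tissue stroke response differ between BLZ945 and CTL mice, and 0% of all genes were called for this interaction (386 of 18968 had an unadjusted p under 0.05, and DESeq2 called 0). The interaction was largest for Serpina3n and Steap4, at 0.55 each on the log2 scale, with a 95% confidence interval of -0.20 to 1.30 for Serpina3n. For Gfap it was 0.33 (-0.44 to 1.10), for Lcn2 -0.37 (-1.85 to 1.12) and for Tgm1 0.13 (-2.63 to 2.89), so that differences of these sizes are not excluded by the intervals.

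Within the ipsilateral hemisphere, Gfap was 0.43 (95% confidence interval -0.11 to 0.98) and Serpina3n 0.43 (-0.08 to 0.94) higher in BLZ945 than in CTL mice on the log2 scale, and neither passed the test. The other 8 genes lay between -0.20 (Cd109) and 0.40 (Tgm1), and the lowest adjusted p over the 10 genes was 0.958. In the contralateral hemisphere the differences ran from -0.51 (Cd109) to 0.27 (Tgm1). For these comparisons 0% of all genes were called by edgeR, 858 (ipsilateral) and 616 (contralateral) had an unadjusted p under 0.05, and DESeq2 called 1 and 0.

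Divided by exon length, so that genes could be set beside each other, Gfap had the highest tissue level. Its median in CTL mice was 57.1 CPM per kb contralaterally and 168 ipsilaterally. Contralaterally it was followed by Aqp4 (18.3), Serpina3n (12.7), Vim (5.99) and S1pr3 (2.72), and the remaining 5 genes lay below 1 CPM per kb, with Cd109 at 0.699, Lcn2 at 0.524, Cd44 at 0.441, Steap4 at 0.303 and Tgm1 at 0.0865. In the ipsilateral hemisphere Serpina3n (51.8) stood above Aqp4 (22.6), and Tgm1 (3.52) had passed Cd44 (2.62), Steap4 (0.810) and Cd109 (0.673). In BLZ945 mice the ipsilateral order was again Gfap (195), Serpina3n (59.4), Aqp4 (19.6) and Vim (15.7). The ipsilateral ranges of Vim (13.95 to 26.96 CPM per kb) and Aqp4 (18.72 to 24.94) overlapped in BLZ945 mice, as did those of the neighbours Lcn2, S1pr3, Tgm1 and Cd44 in both treatments, whose order does not exceed their spread. Contralateral ranges in CTL mice overlapped for Aqp4 (12.13 to 21.45) and Serpina3n (7.60 to 18.24). Those of Cd109, Lcn2, Cd44 and Steap4 overlapped with each other, with single values up to 1.05 for Cd109 and 1.10 for Lcn2. These orders do not exceed their spread either.

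The genes with tissue profiles closest to 3 of the members were sought among 11786 genes, by the root mean square difference between centred log2 CPM over the 16 libraries. Closest to Gfap were Vim (0.305), Serpina3n (0.312) and Msn (0.358), which encodes moesin. Closest to Lcn2 were Cd14 (0.62), Slc15a3 (0.636) and Hmox1 (0.655), which encode a coreceptor for endotoxin, a peptide transporter and haem oxygenase. For Aqp4, whose profile was nearly flat, they were Cflar (0.127), Anxa5 (0.139) and Ifit2 (0.153). These are descriptions of libraries that share mice and hemispheres.

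Other genes of the reactive panels also rose in tissue. In the average of both treatments, 5 of the 6 other pan-reactive genes were called up (median log2 fold change 2.00, against -0.01 over all genes), with Timp1, an inhibitor of matrix metalloproteinases, at 3.60 (adjusted p = 6.12e-06), the chemokine Cxcl10 at 3.54 and the oncostatin M receptor Osmr at 2.35 (adjusted p = 8.27e-11). Of the other A2 genes 9 of 10 were called up (median 1.93), led by the pentraxin Ptx3 (4.70), the endotoxin coreceptor Cd14 (2.90) and Emp1 (2.45). The A1 panel had 5 of 11 called up (median 0.57), with the interferon-induced GTPases Gbp2 (1.92) and Iigp1 (1.65) and the proteoglycan Srgn (1.15) at the top. In CTL mice alone the numbers were 4 of 6, 3 of 10 and 1 of 11, and in BLZ945 mice 5 of 6, 8 of 10 and 4 of 11. With the A3 column names none of these genes was called in the average.

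Genes of resting astrocytes did not rise with the reactive ones. None of 16 homeostatic astrocyte genes was called in tissue (median -0.14 in the average), nor any of 7 endfoot anchoring partners of Aqp4 (median -0.08). In BLZ945 mice the homeostatic genes summed to 9301 to 10151 CPM contralaterally and 7583 to 8511 ipsilaterally. The endfoot partners summed to 729 to 782 and 656 to 717. Neither sum overlapped between these hemispheres. In CTL mice both did, with homeostatic sums of 8617 to 10471 and 7202 to 9552. Among markers of other cells, 2 of 4 tested neutrophil markers were called up, S100a9 (3.70) and Cxcr2 (5.06), both under 1 CPM on average, as was 1 of 5 monocyte markers, Plac8. Of 6 endothelial markers Cdh5 (0.76) and Pecam1 (0.66) were called up, and of 6 microglia markers P2ry12 (-0.70) and Siglech (-0.66) were called down. No border macrophage, fibroblast, neuron, oligodendrocyte, choroid plexus or red blood cell marker was called. S100a9, Cxcr2 and Plac8 were named here after their values were seen. The part of these cells in the changes of Lcn2, Cd44 and Vim was not tested.

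**Figure D3:**
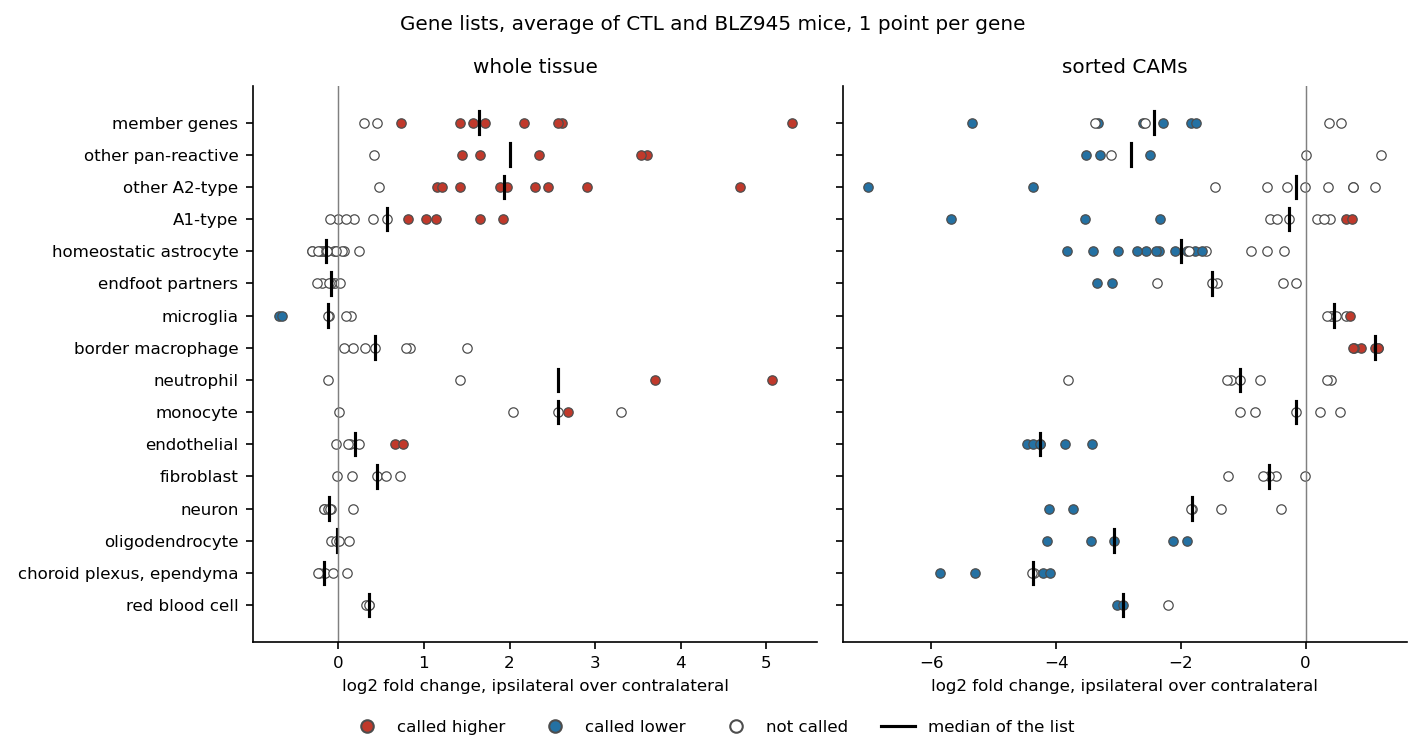
Log2 fold change, ipsilateral over contralateral in the average of both treatments, of each gene of the lists in tissue and in sdCAMs, with 1 point per gene, filled where called, and a bar at the median of the list. The reactive panels lie to the right in tissue (pan-reactive 2.00, A2 1.93), and in sdCAMs the border macrophage markers (1.12) lie opposite to the endothelial ones (-4.26).

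In sdCAM libraries the same genes showed a different picture. Most had lower values in the ipsilateral than in the contralateral libraries, 1 of 10 being called down in CTL mice (2.36% of all 18297 genes), 4 in BLZ945 mice (4.41%) and 6 in the average (11.1%), while none was called up (3.91% of all genes in the average). The medians were -1.76, -2.50 and -2.43 on the log2 scale, where the medians over all genes were -0.11, -0.15 and -0.16. Without C2 or without C4 the count in BLZ945 mice was 1, without A4 that in CTL mice was 0, and without C4 that in the average was 3. The 6 genes called in the average were Gfap, Vim, Lcn2, Serpina3n, S1pr3 and Aqp4.

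Markers of other cells moved with these genes. The summed CPM of 16 homeostatic astrocyte genes was 1233 to 3371 in contralateral and 592 to 1412 in ipsilateral sdCAM libraries of CTL mice, and 761 to 2327 and 429.9 to 822 in those of BLZ945 mice, with 11 of the 16 called down in the average and all 16 below 0 (median -1.99), led by Fgfr3 (-3.82), S100b (-3.41) and Atp1b2 (-3.00). All 6 endothelial markers (median -4.26) and all 5 oligodendrocyte markers (median -3.08) were called down as well, and all 7 border macrophage markers were called up (median 1.12), with Mrc1, which encodes the CD206 of the gate, at 1.15. The border macrophage markers summed to 1732 to 5717 CPM contralaterally and 4525 to 7767 ipsilaterally in CTL mice, and to 1542 to 3935 and 5037 to 9175 in BLZ945 mice. The microglia markers summed to 11827 to 16335 CPM contralaterally and 12111.5 to 24949 ipsilaterally in CTL mice. In BLZ945 mice they summed to 5519 to 10914 and 8753 to 18881. Their group medians were above those of the border macrophage markers in both treatments and hemispheres. Of the other lists, 2 of 6 neuron markers and 2 of 3 red blood cell markers were called down, and none of the fibroblast, neutrophil or monocyte markers was called. The part of RNA from microglia, astrocytes and other cells in the changes of the 10 genes was not tested. The sdCAM values are given as levels in the sorted libraries, not in macrophages.

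**Figure D4:**
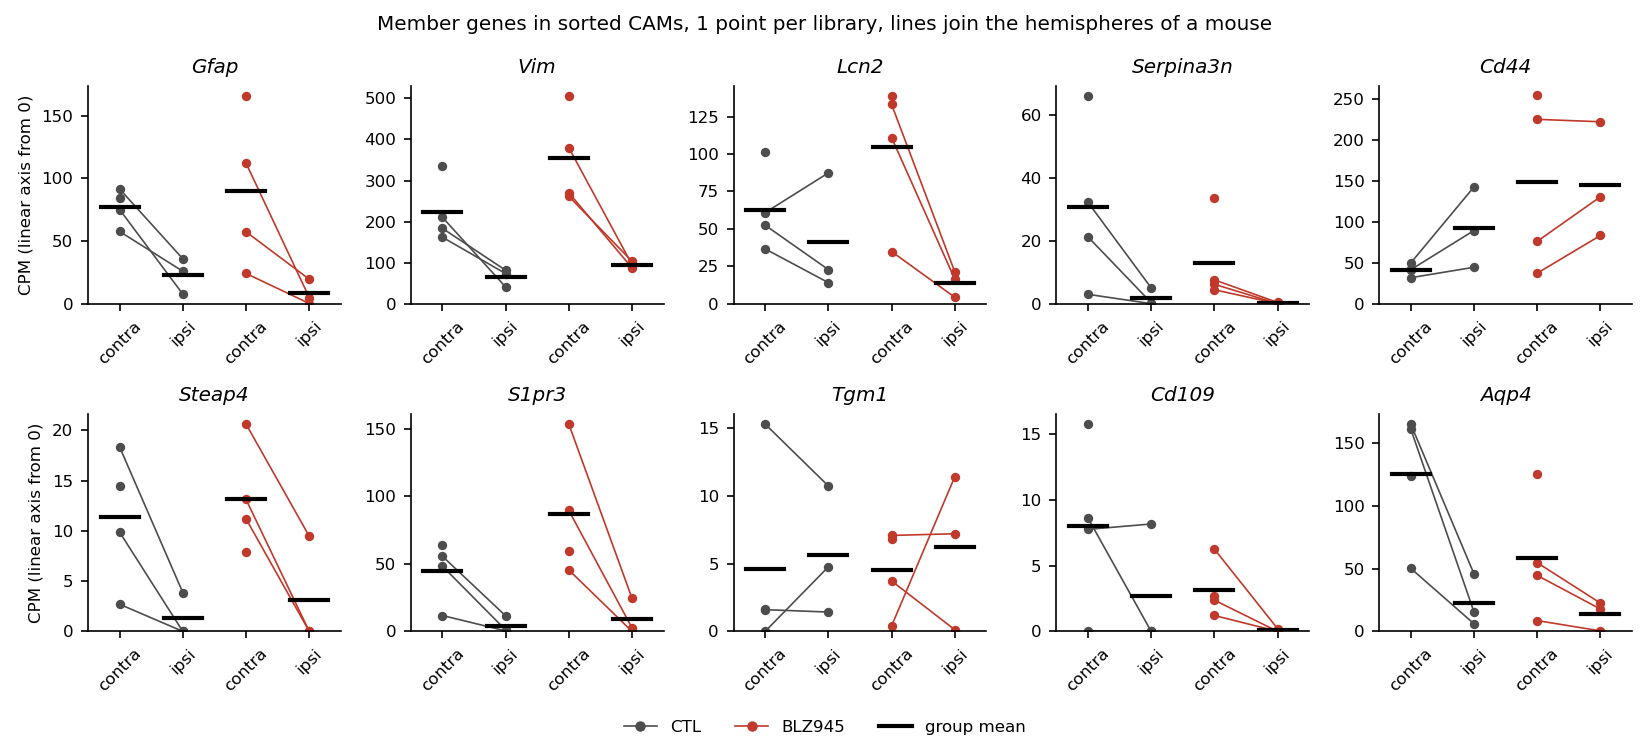
sdCAM CPM of each gene (linear axis from 0) in the 14 libraries used, with 1 point per library, thin lines that join the hemispheres of a mouse and thick bars at the group means; A3 and C2 have a contralateral point only. Vim lies between 162 and 507 CPM contralaterally and between 40.6 and 103 ipsilaterally, and Cd44 shows no such drop.

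Gfap was at 57.7, 84.6, 91.6 and 75.2 CPM in the contralateral sdCAM libraries of CTL mice (77.2 ± 14.7, n = 4) and at 25.8, 35.8 and 7.62 in the ipsilateral ones of A2, A4 and B1 (23.1 ± 14.3, n = 3). In BLZ945 mice it was at 166, 57.4, 112 and 24.1 (89.8 ± 62.2) and at 19.5, 4.90 and 0.103 in C3, C4 and D1 (8.17 ± 10.1). The ipsilateral values lay below the contralateral ones in both treatments, and D1 was lowest on both sides. Gfap fell in BLZ945 mice (log2 fold change -3.46, adjusted p = 0.0491) and in the average (-2.60, SE 0.65, adjusted p = 0.0146), and was not called in CTL mice (-1.74, adjusted p = 0.307). The BLZ945 call held in 2 of the 8 fits without 1 mouse, those without C3 and D1, with log2 fold changes of -5.36 to -2.99 and adjusted p-values up to 0.26. The average call was lost without C4 (adjusted p = 0.0613).

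Vim, which macrophages also express, was the only member called in both treatments. It was at 162, 335, 210.5 and 184 CPM contralaterally (223 ± 77.6, n = 4) and 73.2, 40.6 and 81.3 ipsilaterally in CTL mice (65.1 ± 21.6, n = 3). In BLZ945 mice it was at 507, 270.1, 380.0 and 262 (355 ± 115) and at 87.0, 94.9 and 103 (95.02 ± 8.07). The hemispheres were apart in both treatments. Vim fell by 1.78 (adjusted p = 0.00964) in CTL and 1.90 (adjusted p = 0.00398) in BLZ945 mice on the log2 scale, and the CTL call was lost without A4 (adjusted p = 0.0658).

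Lcn2, which macrophages can also make, was at 36.6, 101, 60.9 and 52.4 CPM contralaterally and 14.05, 87.4 and 22.7 ipsilaterally in CTL mice, and at 139, 34.8, 111 and 133 and at 4.27, 16.3 and 21.2 in BLZ945 mice. The CTL hemispheres overlapped through A4, whose ipsilateral value was above its contralateral one, and the BLZ945 hemispheres did not overlap. Lcn2 fell in BLZ945 mice (-2.90, adjusted p = 0.0254) and was not called in CTL mice (-0.60). The BLZ945 call was lost without C2, C3, C4 or D1 (highest adjusted p = 0.131), and the average call (-1.75, adjusted p = 0.0198) without B1 or C4. Its interaction was -2.30 on the log2 scale, the lowest unadjusted p of the members in this comparison, and did not pass adjustment (adjusted p = 0.992). Neutrophils also make Lcn2. The neutrophil markers summed to 253 to 3095 CPM (median 2150) contralaterally and 409 to 944 (median 627) ipsilaterally in BLZ945 mice. In CTL mice the medians were 453 and 597. The part of neutrophil RNA in the Lcn2 values was not tested.

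Serpina3n was scarce in the ipsilateral libraries. In BLZ945 mice it was at 33.6, 7.54, 6.16 and 4.41 CPM contralaterally, with C2 far above the others, and at 0.366, 0 and 0 ipsilaterally. Those libraries held 3 counts against 442, a ratio of 0.00976 per library size (95% interval 0.00201 to 0.0287). Of the 442, 265 came from C2, which has no ipsilateral library here, and without it the ratio was 0.0192 (3 against 177 counts, 0.00392 to 0.057). These intervals cover counting error of amplified reads only and not the spread between mice, which in sdCAMs was 36.9 to 148 times the sampling variance. In CTL mice it was at 32.2, 65.8, 2.95 and 21.2 and at 5.02, 0 and 0.322, with overlap between A2 and A4. The fitted change was called in BLZ945 mice (adjusted p = 0.0375) and in the average (adjusted p = 0.00502) and not in CTL mice (adjusted p = 0.139). The BLZ945 call was lost without C2, C3, C4 or D1 (highest adjusted p = 0.163), and the average call held in all 8 fits without 1 mouse.

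The receptor S1pr3 was at 11.8, 63.9, 55.6 and 48.3 CPM contralaterally and 0.376, 11.5 and 1.07 ipsilaterally in CTL mice, and at 59.4, 89.5, 153 and 45.5 and at 2.56, 24.5 and 0 in BLZ945 mice. All ipsilateral values lay below the contralateral ones of the same treatment. It was called in the average (-3.33, SE 0.89, adjusted p = 0.0198), a call lost without B1 or C3 (highest adjusted p = 0.07), and with the mouse as a block also in BLZ945 mice (-4.84, adjusted p = 0.0227), where 3.73% of all genes were called down.

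Aqp4 was at 161, 124, 165 and 50.3 CPM contralaterally (125 ± 53.3, n = 4) and 15.6, 45.9 and 6.12 ipsilaterally in CTL mice (22.5 ± 20.8, n = 3), and at 125, 54.8, 44.6 and 8.62 (58.4 ± 48.9) and 22.5, 17.8 and 0.412 (13.6 ± 11.7) in BLZ945 mice. The CTL hemispheres did not overlap, whereas those of BLZ945 mice did through D1. Aqp4 was called in the average (-2.29, SE 0.69, adjusted p = 0.0357), but this call held in only 2 of the 8 fits without 1 mouse, those without A4 and D1 (highest adjusted p = 0.102, without A2). With the mouse as a block it was also called in CTL mice (-2.74, adjusted p = 0.0214), where 1.48% of all genes were called down.

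Cd44, which macrophages can also express, did not follow the genes called down. It was at 41.5, 42.6, 31.7 and 49.7 CPM contralaterally (41.4 ± 7.39, n = 4) and 89.4, 44.5 and 143 ipsilaterally in CTL mice (92.2 ± 49.2, n = 3), and at 255, 37.2, 76.2 and 225 (148 ± 108) and 83.4, 131 and 222 (146 ± 70.7) in BLZ945 mice. The hemispheres overlapped in both treatments, and in 5 of 6 mice the ipsilateral value was the higher one. It was not called in the average (0.56, SE 0.38, adjusted p = 0.341), but was called up with the mouse as a block (0.84, adjusted p = 0.0224), where 3.08% of all genes were called up.

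The remaining 3 genes were scarce and did not pass the test. Steap4 was at 9.88, 14.4, 2.701 and 18.4 CPM contralaterally and 0, 0 and 3.86 ipsilaterally in CTL mice, and at 7.85, 13.1, 11.2 and 20.6 and at 0, 0 and 9.47 in BLZ945 mice. Its ipsilateral value was lower in 6 of 6 mice, and with the mouse as a block it was called down in the average (adjusted p = 0.0453), where 7% of all genes were. Cd109 had 2 ipsilateral counts against 117 contralateral ones in BLZ945 mice (ratio 0.0246, 95% interval 0.00294 to 0.0908, counting error only). The fit over mice did not call it in BLZ945 mice (adjusted p = 0.192) or in the average (adjusted p = 0.119). Tgm1, the gene with the largest tissue change, was at 0 to 15.3 CPM contralaterally and 0.122 to 11.4 ipsilaterally, higher ipsilaterally in 3 mice and lower in 3 (average log2 fold change 0.38, SE 1.04).

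Between the treatments no member was called in sdCAMs. The interaction ran from -3.62 (Cd109) to 1.06 (Steap4) on the log2 scale, and BLZ945 differed from CTL by -4.98 (Cd109) to 1.28 (Steap4) ipsilaterally and -1.36 (Cd109) to 1.84 (Cd44) contralaterally. The contralateral difference of Cd44 had an unadjusted p of 0.00277 and an adjusted p of 0.759. The BLZ945 mice C2 and D1 were highest, at 255 and 225 CPM. C4, at 76.2 CPM, also lay above the CTL values (31.7 to 49.7), and C3, at 37.2, lay among them. Across all genes 0% were called in the 3 comparisons by edgeR (912, 1034 and 1133 of 18297 had an unadjusted p under 0.05), and DESeq2 called 48, 123 and 39 genes, none of them a member.

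Other genes of the reactive panels were mixed in sdCAMs. Of the other pan-reactive genes 3 of 6 were called down in the average, the small heat shock protein gene Hspb1 (-3.52), Osmr (-3.30) and Timp1 (-2.49). Of the other A2 genes 2 of 10 were called down (Ptx3 at -7.01 and Tm4sf1 at -4.37), and of the A1 genes 3 of 11 were called down (Amigo2, Fbln5 and Serping1) and 2 called up. Among the endfoot partners of Aqp4, Mlc1 (-3.35) and Hepacam (-3.11) were called down. Markers of the choroid plexus and ependyma, which dissection was meant to remove, were also called down in 4 of 6 cases, and their sum ranged from 0.502 to 37362 CPM over the sdCAM libraries.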

How the data were processed

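Bulk RNA-seq counts of 16 tissue and 16 sdCAM libraries were used. The authors aligned reads with STAR 2.7.11a, counted them on genes with featureCounts 2.0.8 (versions from the submitters' processing notes) and deposited unnormalized raw counts for 33280 genes. The sdCAM libraries were amplified from few cells with a SMARTer kit. The genome build was stated ambiguously, so coordinates come from RefSeq promoters alone. A summed count of at least 8 (tissue) or 7 (sdCAMs) was required, and edgeR 4.0.16 was run with TMM scaling and 1 mean per group of treatment and hemisphere, in 1 model per material, two-sided, after a test on simulated data. CPM per kb used GENCODE exon lengths of a mouse annotation.

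Deviations from group means correlated between the hemispheres of a mouse (r 0.214 to 0.645 over 8 mice in tissue, 0.0451 to 0.191 over 6 in sdCAMs), and the same animal gave both, so block values are printed where they change a call. They are also given for Gfap, Vim, Lcn2 and Cd44 in CTL tissue. Replicates spread 4.68 to 32.0 (tissue) and 36.9 to 148 (sdCAMs) times sampling variance. The labels give mice as separate, so the spread within a group of treatment and hemisphere is one between mice. Without the block, however, the p-values treat both hemispheres of a mouse as independent libraries and ignore their pairing. The ratio of Serpina3n without C2 was added after the values were seen. The alternatives tried were DESeq2 1.42.0, its size factors, other filters and fold thresholds, the replicate block, all 16 sdCAM libraries, A3 by column names, and leaving out each mouse.

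All 10 genes were named, and from each other list up to 3 called genes with the largest change and at least 1 CPM on average. Genes and lists were chosen with earlier results of these data known.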

Additional observations from a re-analysis of the deposited data

Results flagged for a closer look

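Dixon's criterion, which chance alone meets in about 1 in 20 groups, was applied to every member in each group of 4 libraries. With so many groups, chance alone gives some such values. By this criterion 6 values lay apart from the others of their group. In tissue these were Gfap in the ipsilateral hemisphere of BLZ945 mouse C2 (1062 CPM, the others 797.3 to 829.8), Cd109 in the same library (6.612 CPM, the others 3.696 to 4.111), Steap4 in ipsilateral C3 (5.514 CPM, the others 2.267 to 2.497) and Aqp4 in ipsilateral CTL mouse A4 (114.3 CPM, the others 140.2 to 144.8). In sdCAMs they were Serpina3n in contralateral C2 (33.56 CPM, the others 4.412 to 7.544) and Tgm1 in contralateral B1 (15.29 CPM, the others 0 to 1.645).

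A signal also appeared in a library that entered no comparison. The degraded ipsilateral sdCAM library of A3 held 33 Tgm1 counts of 54055, or 610.5 CPM before TMM scaling (95% Poisson interval 420.2 to 857, counting error only), where the highest contralateral sdCAM value was 15.84 CPM on that scale.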

How the results depend on the processing

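Members called were recomputed under each alternative. With the A3 column names the counts became 0 in CTL, BLZ945 and averaged tissue, and with the replicate block added to that mapping (chosen after seeing the data) 0 in CTL and 4 in the average. In BLZ945 tissue the calls of Gfap, Vim, Serpina3n, Cd44 and Tgm1 were lost in 1 of 16 alternatives, that by column names. They held with the block added to it. Leaving out each mouse gave 2 to 6, 5 to 7 and 7 to 8 in tissue. In sdCAMs it gave 0 to 2 in CTL (2 without D1), 1 to 3 in BLZ945 mice (1 without C2 or C4, 2 without C3 or D1) and 3 to 7 in the average (3 without C4), and the CTL count was 2 by DESeq2, 2 with the block and 0 with all 16 libraries. The replicate block, which could not be fitted between treatments, changed no call of a member other than those given.

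Over all genes, the 84 calls in CTL tissue became 139 by DESeq2, 185 with the block, 0 by column names and 24 to 87 without a mouse. The 220 in BLZ945 tissue became 347, 414, 6 and 79 to 218. The 381 in the average became 578 without a fold threshold, 1 by column names and 146 with the block added. In sdCAMs 510 in CTL mice became 1762 by DESeq2, 293 with the block, 205 with all 16 libraries and 139 to 612 without a mouse, 1027 in BLZ945 mice became 2423, 428 (all 16) and 270 to 1219, and 2745 in the average became 1186 (all 16).

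Among the tested alternatives, these directions turned, all for differences that were not called. The tissue interaction of Aqp4 became -0.0021 under filterByExpr and -0.017 with the block (-0.0894 to 0.12 without a mouse), that of Lcn2 1.78 by column names and 1.12 with the block added, and that of Cd109 -0.14 and -0.23. Without a mouse, the interaction ran from -0.14 to 0.66 for Cd109, -0.0544 to 0.24 for Cd44 and -0.28 to 0.59 for Tgm1, and the CTL tissue change of Cd109 from -0.0511 to 0.75. BLZ945 minus CTL for ipsilateral tissue Lcn2 became 0.42 by column names and ran from -0.43 to 0.15 without a mouse, that of Cd44 from -0.0076 to 0.58, Steap4 from -0.17 to 0.59 and Cd109 from -0.47 to 0.27. The sdCAM change of Cd44 in BLZ945 mice became 0.64 with the block and ran from -0.20 to 0.37 without a mouse, and that of Tgm1 from -0.0154 to 1.505 in CTL, -0.68 to 0.96 in BLZ945 mice and -0.19 to 0.99 in the average. The cause was not tested. Depth limits Tgm1 in contralateral tissue and Serpina3n and Cd109 in ipsilateral sdCAMs.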
